A study of Sus scrofa with 2 samples.

Results

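The miR-532, miR-188, miR-362 and miR-500 cluster is a run of X-linked miRNA genes that in human lie within CLCN5, a gene for a chloride/proton exchanger. Its members were chosen by name, as the entries called miR-188, miR-362, miR-500, miR-501, miR-502, miR-532 or miR-660 in the deposited lists, whatever the species of the entry. All 7 names had reads, in 11 arms out of 1301 miRNAs with reads, under 18 of 1933 listed entries. The cluster held 146 of 28643 distinct tags in the 180-day library and 428 of 82288 in the 30-day library, a tag being one sequence with its read count. The RNA came from whole testis of boars of Junmu-1, an indigenous Chinese breed with a white coat, at 180 days (sexually mature) and at 30 days (sexually immature). At each age the RNA of 3 boars was pooled into 1 library, so there was no replicate spread, and no p-value can be given. Each interval below is an exact 95% interval that covers counting error only and compares these libraries, not the ages. Overlapping intervals do not show that values are equal. Reads were counted without molecular identifiers.

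A miRNA precursor is a hairpin whose 5p and 3p arms can each give a mature miRNA, and bases 2 to 8 of that miRNA, the seed, choose most of its target mRNAs. Members of a cluster made from one transcript can differ in level, since processing and decay differ from hairpin to hairpin. In mouse, protein-coding genes of the X chromosome are silenced in meiotic spermatocytes, while several X-linked miRNAs have been reported to be transcribed there. In the RefSeq annotation of the pig assembly Sscrofa11.1, 3 of the 7 names were matched, and MIR532, MIR500 and MIR362 neighbour each other on chromosome X between USP27X, a deubiquitinase gene, and CLCN5.

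The sequences of the cluster are shown first because several members differ by a base or by a shift of the start, which limits how far their reads can be told apart. Each line gives an arm and a sequence from the deposited lists, 5′ to 3′, with the seed in capitals and T standing for U. For the last pair of arms the sequence is the listed human entry, and for the others it is the most read pig tag.
miR-532-5p: cATGCCTTgagtgtaggaccgt
miR-532-3p: cCTCCCACacccaaggcttgca
miR-660: tACCCATTgcatatcggagttg
miR-188-5p: cATCCCTTgcatggtggagggta
miR-362-5p: aATCCTTGgaacctaggtgtga
miR-362-3p: aACACACCtattcaaggattca
miR-500-5p: tAATCCTTgctacctgggtgaga
miR-500-3p: aTGCACCTgggcaaggattctga
miR-501-3p: aATGCACCcgggcaaggattct
miR-502-3p: aATGCACCtgggcaaggattca
The entries of miR-501-3p and miR-502-3p had the same seed, and no other pair of arms did. The seeds of miR-500-5p and miR-362-5p are one stretch shifted by 1 base, and so are those of miR-502-3p and miR-500-3p. The entries of miR-500-3p and miR-502-3p shared an unbroken run of 20 bases, and those of miR-362-5p and miR-500-5p were identical at 18 of 22 aligned bases.

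The 3p reads of miR-500, miR-501 and miR-502 could therefore not be cleanly separated. The exact listed sequence of miR-501-3p had 0 reads in either library, as had that of miR-502-3p. A stretch of 9 bases in the miR-501-3p entry that the other entries lack was in 0 reads of the 180-day library and in 1 read of the 30-day library. The most read tag assigned to miR-502-3p, with 2 reads in the 180-day and 7 in the 30-day library, is the leading miR-500-3p tag with 1 more A in front:
miR-502-3p tag: aATGCACCtgggcaaggattctga
Tags that fitted several of these arms equally were split between them, which left miR-501-3p with 2 reads in the 180-day library and 2.83 in the 30-day library. Together the 3p arms of the 3 names had 106 and 770 reads in the 180-day and 30-day libraries, of which 97 and 726.3 were assigned to miR-500-3p.

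The 180-day library held 852209 miRNA-matched reads and the 30-day library 7525725, and levels are given as RPM, the reads of a miRNA per 1000000 of these. Such levels describe the makeup of the miRNA pool, and their ratios, 180-day over 30-day library, move with the scaling. TMM scaling, which trims extreme miRNAs, shifted every log2 ratio by -0.93 and median-of-ratios scaling by -0.95. After either, miR-362-3p was the one measured arm still above a ratio of 1, at log2 values of 0.80 and 0.77 and not called by the 2-fold rule given below. Ratios per read of any small RNA need library totals, which the lists do not state. If the tag numbers are ranks by read count, an assumption (read counts never rise with the tag number in either list), the least totals they permit make miRNA-matched reads at most 7.08% of the 180-day and 59.2% of the 30-day library. With those totals the shift was -3.06 and all 9 measured arms were called lower, as were 83.6% of all 433 measured miRNAs. Both totals are minima, so this is not a bound on any ratio. Every ratio below is per miRNA-matched read.

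The summed levels of miRNAs that mark other cell types and germ cells varied between the libraries too, least for white blood cells. All 5 names marking meiotic and later germ cells (miR-34b, miR-34c and the miR-449 names) had reads, summing to 35299 RPM in the 180-day library and 11.6 RPM in the 30-day library, and the gonadal miR-202 had 110872 RPM in the 180-day and 68481 RPM in the 30-day library. In the 180-day and 30-day libraries, names marking muscle summed to 6550 and 1432 RPM, red blood cells to 3850 and 1644, endothelium to 629 and 381, liver to 218 and 21.3, white blood cells to 194 and 168, brain to 156 and 10.6, and epithelium to 96.2 and 67.9. Most of the muscle sum was miR-1, at 6397 RPM in the 180-day and 1305 RPM in the 30-day library. In the same order miR-133a had 26.4 and 8.97 RPM, and miR-206 had 124 and 121 RPM. One of 2 liver names had no reads in either library, and 1 of 3 brain names had none in the 180-day library. Their part in the ratios of the cluster was not tested. In whole testis, fewer cells of a type and less RNA per cell cannot be told apart.

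The whole cluster was a small part of the testis miRNA pool at both ages. It took 0.0834% of miRNA-matched reads in the 180-day library (0.0774 to 0.0898%), or 711 reads, and 0.0617% in the 30-day library (0.0600 to 0.0635%), or 4647 reads. The summed level was 834 RPM in the 180-day and 617 RPM in the 30-day library, a ratio of 1.35 (1.25 to 1.46). Without miR-532-5p, the most read arm, the ratio of the other arms was 1.57 (1.43 to 1.73). Once the 11 miRNAs among the 10 most abundant of either library were taken out of the totals, the cluster took 0.234% in the 180-day and 0.237% in the 30-day library, so its higher share was not seen. The 5p arms together had a ratio of 1.20 (1.07 to 1.33) and the 3p arms 1.62 (1.43 to 1.83).

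miR-532 gave the most reads in both libraries, and its arms differed in their ratio. miR-532-5p had 204 reads or 239 RPM (208 to 275) in the 180-day library, against 1804 reads or 240 RPM (229 to 251) in the 30-day library, and its ratio was 0.999 (0.860 to 1.15). miR-532-3p had 146 reads or 171 RPM (145 to 201) in the 180-day library, against 769 reads or 102.2 RPM (95.1 to 109.7) in the 30-day library, and its ratio was 1.68 (1.39 to 2.004). The levels of the 5p arm overlapped within counting error, and those of the 3p arm did not. Among all miRNAs of a library the 5p arm ranked 118 in the 180-day and 105 in the 30-day list, and the 3p arm 137 and 139.

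The miR-362 arms had the highest ratios of the 9 measured arms, those with 20 or more reads over both libraries. miR-362-3p had 60 reads or 70.4 RPM (53.7 to 90.6) in the 180-day library, against 160 reads or 21.3 RPM (18.1 to 24.8) in the 30-day library. Its ratio was 3.31 (2.42 to 4.48), while with the assumed totals of any small RNA it turned round to a log2 value of -1.34. miR-362-5p, reported in human cells to target the deubiquitinase gene CYLD, had 56 reads or 65.7 RPM (49.6 to 85.3) in the 180-day library, against 284 reads or 37.7 RPM (33.5 to 42.4) in the 30-day library, a ratio of 1.74 (1.28 to 2.33). For neither arm did the RPM intervals of the libraries overlap. The arms together had 136 RPM and 59.0 RPM in the 180-day and 30-day libraries, a ratio of 2.31 (1.86 to 2.84).

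miR-660 and miR-500-3p lay between these. miR-660, reported in human lung cancer cells to act on MDM2, had 120 reads or 141 RPM (117 to 168) in the 180-day library, against 704 reads or 93.5 RPM (86.8 to 100.7) in the 30-day library, a ratio of 1.51 (1.23 to 1.83). miR-500-3p had 97 reads or 114 RPM (92.3 to 139) in the 180-day library, against 726.3 reads or 96.5 RPM (89.6 to 103.8) in the 30-day library, a ratio of 1.18 (0.944 to 1.46). The miR-660 intervals of the libraries did not overlap, and those of miR-500-3p did. With miR-501-3p and miR-502-3p added to miR-500-3p, the ratio was 1.22 (0.983 to 1.49).

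The remaining arms had too few reads in the 180-day library for a narrow ratio. miR-188-5p, known in mouse bone marrow stromal cells for a switch between bone and fat formation, had 10 reads or 11.7 RPM (5.63 to 21.6) in the 180-day library, against 90 reads or 11.96 RPM (9.62 to 14.7) in the 30-day library, a ratio of 0.981 (0.455 to 1.89). miR-500-5p had 9 reads in the 180-day and 65 in the 30-day library (ratio 1.22, 0.535 to 2.47). miR-502-3p, not cleanly separated from miR-500-3p, had 7 reads in the 180-day and 40.8 in the 30-day library (ratio 1.51, 0.573 to 3.41). Each of these intervals reaches past 2-fold in at least one direction. Without tags of 1 read, miR-188-5p had 3 reads in the 180-day and 85 in the 30-day library and was called lower, at a log2 ratio of -1.66. miR-188-3p had 0 reads in the 180-day library and 1 read in the 30-day library, so no fold was formed. A count of 3 reads was worth 3.52 RPM in the 180-day library, against 0.399 RPM in the 30-day library.

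**Figure D1:**
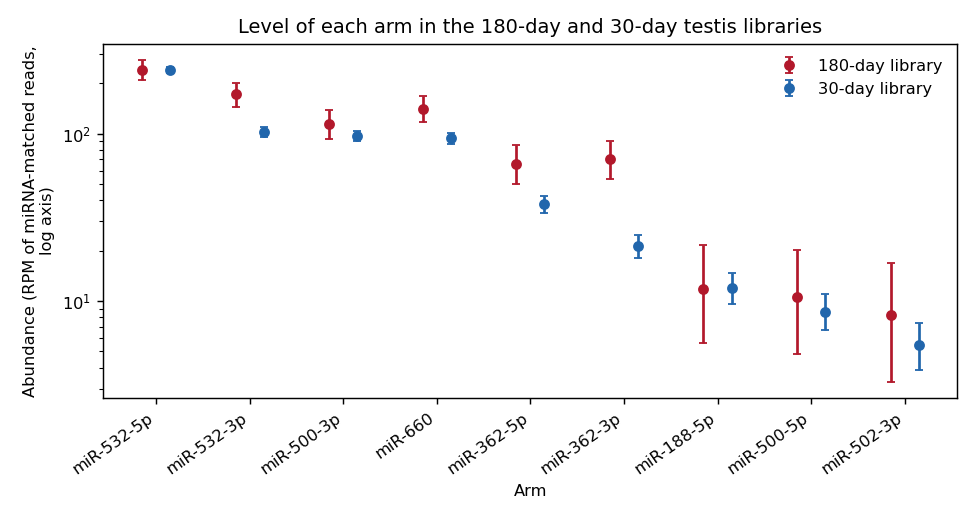
Level of each measured arm in RPM of miRNA-matched reads on a log axis, with exact Poisson 95% intervals as bars, red for the 180-day and blue for the 30-day library (1 library each). In the 180-day and 30-day libraries miR-532-5p stands at 239 and 240 RPM, and miR-362-3p at 70.4 and 21.3 RPM.

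miR-532-5p led the order of the arms in both libraries, with its interval above the next. In the 180-day library miR-532-3p, miR-660 and miR-500-3p followed, and in the 30-day library miR-532-3p, miR-500-3p and miR-660, each with an interval that overlapped the next in that run. The miR-362 arms overlapped in the 180-day library, and in the 30-day library miR-362-3p stood below miR-362-5p with intervals apart. miR-188-5p, miR-500-5p and miR-502-3p closed the order at both ages and overlapped from one to the next.

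Shares of the cluster's own reads do not depend on how the libraries are scaled. miR-532-5p took 28.7% of them in the 180-day library (25.4 to 32.2%), against 38.8% in the 30-day library (37.4 to 40.2%). miR-362-3p took 8.44% in the 180-day library (6.50 to 10.7%), against 3.44% in the 30-day library (2.94 to 4.01%). Beyond counting error, miR-532-5p was thus a smaller and miR-362-3p a larger part of the cluster in the 180-day library. For miR-532-3p the intervals only just overlapped, at 20.5% in the 180-day (17.62 to 23.7%) and 16.5% in the 30-day library (15.5 to 17.65%). In the same order they also overlapped for miR-660 (16.9% and 15.1%), miR-500-3p (13.6% and 15.6%) and miR-362-5p (7.88% and 6.11%).

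Calls were counted in the cluster and over all miRNAs. A miRNA was called higher at a ratio of 2 or more, or lower at 0.5 or less, when its interval excluded 1. Of the 9 measured arms, 1 was called higher (miR-362-3p) and 0 lower, where 30.7% of 433 measured miRNAs were called higher, 11.5% lower and 42.3% either way. These 433 were not limited to any species, and some had reads in one library alone. In the 180-day and 30-day libraries miR-1819 had 137 and 0 reads, and miR-196a had 0 and 126. The interval lay wholly within 2-fold for 3 of the 8 arms other than miR-362-3p, namely miR-532-5p, miR-500-3p and miR-660. miR-188-5p, miR-500-5p and miR-502-3p had 10, 9 and 7 reads in the 180-day library, so their lack of a call says little. With tags identical to a listed entry alone, 2 of 7 measured arms were called higher and 0 lower, against 23.8% and 11.3% of 265 miRNAs. The median log2 ratio was 0.59 over the 9 arms and 0.29 over all 433 miRNAs, with those at 0 reads put at 3 reads.

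**Figure D2:**
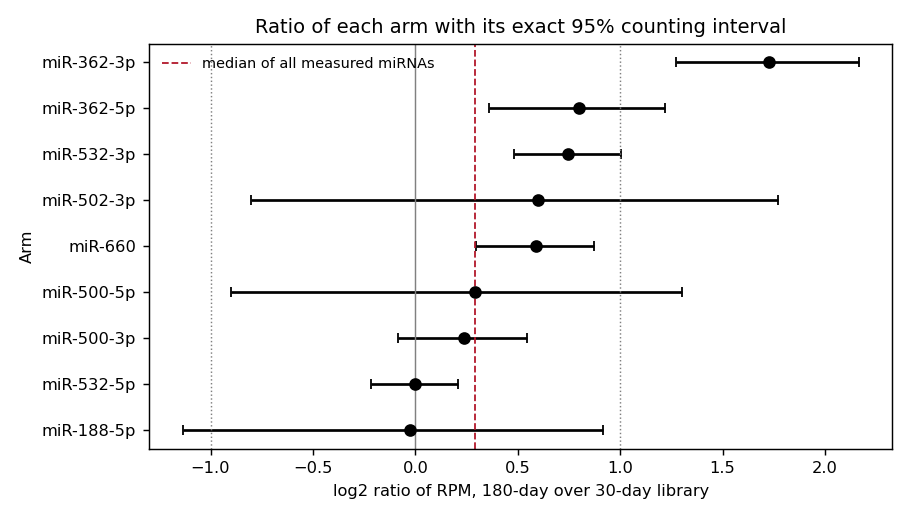
log2 ratio of RPM, 180-day over 30-day library, of the 9 measured arms with exact 95% counting intervals as bars; dotted lines mark 2-fold and the dashed line the median of all 433 measured miRNAs at 0.29. miR-362-3p alone, at 1.73, lies wholly past a 2-fold line, and under TMM scaling every point moves by -0.93, which leaves miR-362-3p alone above 0.

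Other X-linked groups lay on both sides of the cluster. Of 6 measured arms of miR-374, miR-421 and miR-545, 4 were called higher and 0 lower, and their median log2 ratio was 1.43. Of 8 measured arms of miR-424, miR-503, miR-450 and miR-542, 0 were called higher and 1 lower (median -0.59), and of 3 measured arms of miR-221 and miR-222, 0 higher and 2 lower (median -1.19). All these values come from the same libraries, and differences between the groups were not tested.

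The balance of the arms was compared within each precursor, which needs no scaling between the libraries. The 3p arm held a larger part of miR-532 and of miR-362 in the 180-day library, and miR-500 showed no such difference beyond counting error. The 5p arm held 58.3% of miR-532 reads in the 180-day library (52.9 to 63.5%), against 70.1% in the 30-day library (68.3 to 71.9%). It held 48.3% of miR-362 reads in the 180-day library (38.9 to 57.7%), against 64.0% in the 30-day library (59.3 to 68.4%). For miR-500, whose 3p arm was the main one, the 5p share was 8.49% in the 180-day library (3.96 to 15.5%), against 8.21% in the 30-day library (6.40 to 10.3%). Of miR-188 reads, 10 of 10 in the 180-day and 90 of 91 in the 30-day library were from the 5p arm.

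Of 98 precursors with reads of both arms and 50 or more reads in each library, 59 had 95% or more of their reads from one arm in both, which leaves a share little room to move. Among the other 39, a limit set after the values were seen, the median change in arm share was 4.47 percentage points, and miR-362 ranked 3, miR-532 ranked 7 and miR-500 ranked 38 by size of change. With tags identical to a listed entry alone, the 5p share of miR-362 was 40.4% in the 180-day and 38.5% in the 30-day library. The difference was then no longer seen, but such tags must end where an entry ends, so this share also depends on the 3′ ends. They kept 21 of 56 miR-362-5p reads in the 180-day and 42 of 284 in the 30-day library. For miR-362-3p they kept 31 of 60 and 67 of 160. With such tags the 5p share of miR-532 was 68.1% in the 180-day library (61.7 to 74.1%) and 76.0% in the 30-day library (73.9 to 78.0%), with intervals that just overlapped.

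**Figure D3:**
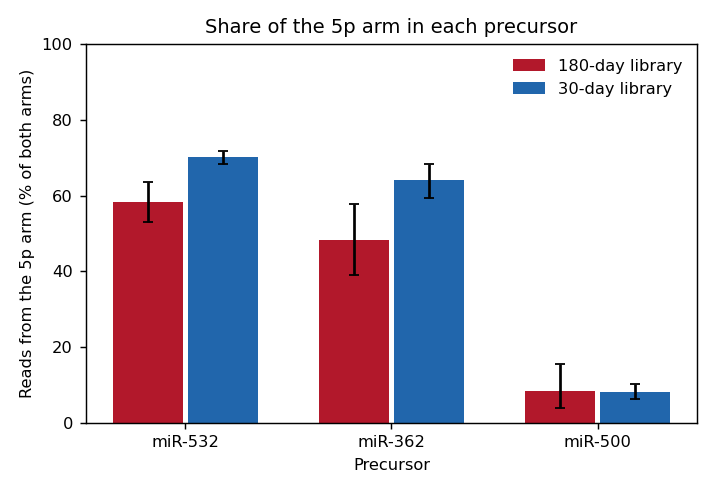
Reads from the 5p arm as a percentage of both arms for miR-532, miR-362 and miR-500, red for the 180-day and blue for the 30-day library, with exact binomial 95% intervals. The 5p share of miR-532 was 58.3% and 70.1% in the 180-day and 30-day libraries, and that of miR-362 48.3% and 64.0%.

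The starts of the members, which fix the seed, were sharp at both ages. In all 6 arms with 50 or more reads in each library the leading start was that of the listed entry. For miR-532-5p it held 97.1% of reads in the 180-day library (93.7 to 98.9%), against 97.9% in the 30-day library (97.2 to 98.6%). The lowest of the 6 was miR-500-3p, with 92.8% in the 180-day library (85.7 to 97.0%) and 94.0% in the 30-day library (92.1 to 95.6%). Of its reads, 3 in the 180-day and 29.3 in the 30-day library began 1 base earlier. At that start the seed becomes that of miR-502-3p if its bases are unchanged. Other reads with that start were assigned to miR-502-3p or miR-501-3p, so the miR-500-3p share depends on the assignment. Over the 3p reads of the 3 names, 10 of 106 in the 180-day and 62 of 770 in the 30-day library began 1 base ahead of miR-500-3p. These began with AA or AG, and with AG the seed differs from that of miR-502-3p.

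The 3′ ends varied more than the starts, and in miR-362-5p they differed between the libraries. Its tags ended with the 24-base listed entry in 46.4% of reads in the 180-day library (33.0 to 60.3%), against 17.3% in the 30-day library (13.05 to 22.2%). They ended short of it in 48.2% in the 180-day library (34.7 to 62.0%), against 72.5% in the 30-day library (67.0 to 77.6%). The longer form thus held more of the arm in the 180-day library, beyond counting error. With tags identical to a listed entry alone, miR-362-5p had a log2 ratio of 2.24 and was called higher, against 0.80 and no call with all tags. Reads of miR-362-3p ended with its entry in 39 of 60 cases in the 180-day library, 65.0% (51.6 to 76.9%), and in 80 of 160 in the 30-day library (42.0 to 58.0%), with overlapping intervals.

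The shares of miR-532 and miR-660 reads that ended with the entry did not differ between the libraries beyond counting error. miR-532-5p ended with its entry in 85.3% of reads in the 180-day library (79.7 to 89.9%), against 85.4% in the 30-day library (83.6 to 87.0%). For miR-532-3p the share was 61.6% in the 180-day library (53.2 to 69.6%) and 63.7% in the 30-day library (60.2 to 67.1%). For miR-660 it was 73.3% in the 180-day library (64.5 to 81.0%) and 71.3% in the 30-day library (67.8 to 74.6%).

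miR-500-3p and, in the 30-day library, miR-188-5p mostly ran past the entries they were listed under. The most read miR-500-3p tag carried 1 more A than the human entry and held 41.2% of the arm in the 180-day library, against 33.3% in the 30-day library. Tags with only A past the end of the entry, whatever their other bases, made up 52.6% of the arm in the 180-day library (42.2 to 62.8%). In the 30-day library they made up 47.5% (43.8 to 51.2%), with overlapping intervals. For miR-188-5p, tags past the rhesus monkey entry held 5 of 10 reads in the 180-day library, against 66 of 90 in the 30-day library. Of these 66, 46 had only A past its end, among them 9 reads of a tag whose last entry base was also changed to A. No pig genome was used here, so an added base cannot be told apart from a base of the pig hairpin.

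**Figure D4:**
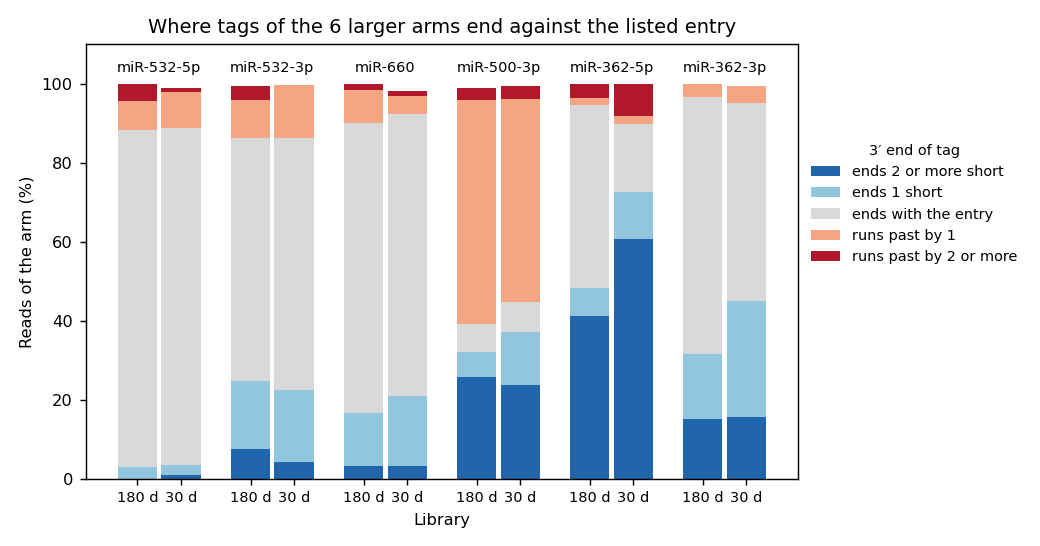
Percentage of reads of each of the 6 larger arms by where the tag ends against its listed entry, in the 180-day (left) and 30-day (right) library, with reads that could not be aligned left out of the bars but kept in the total. In miR-362-5p the grey class that ends with the entry holds 46.4% and 17.3% in the 180-day and 30-day libraries, and in miR-500-3p the class 1 base past the entry holds 56.7% and 51.2%.

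In 2 arms a single base differed from the listed entry in many reads, and these were singled out after their values were seen. Positions are counted from 1 at the 5′ end of the listed entry, and the changed base of the most read such tag is in capitals.
miR-532-5p with C20G: catgccttgagtgtaggacGgt
miR-500-3p with A1G: Gtgcacctgggcaaggattctga
C20G was in 0 of 204 covering reads of miR-532-5p in the 180-day library, which allows a share of up to 1.79% by the exact interval (1.47% by a count of 3 reads), against 167 of 1777 in the 30-day library, 9.40% (8.08 to 10.9%). The 167 reads were spread over 19 distinct tags, the largest with 102 reads. Without them the ratio of miR-532-5p was 1.10 (0.947 to 1.27), and the 5p share of miR-532 in the 30-day library was 68.0%.

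A1G was in 9 of 93 covering reads of miR-500-3p in the 180-day library, 9.68% (4.52 to 17.6%), against 100.3 of 712.3 in the 30-day library, 14.1% (11.6 to 16.9%). The intervals overlapped for A1G and not for C20G. Neither position falls within the seed of the leading start. Over positions 1 to 18 the median share of changed bases in the 30-day library was far lower, at 0.224% in miR-532-5p and 0.415% in miR-500-3p. Nearer the 3′ end of miR-532-5p, the share in that library was 0.674% at position 19, 0% at 21 and 2.15% at 22. Among miRNAs outside the cluster with 500 or more reads, a substitution against the most read tag reached 4% or more of reads in 7 of 83 in the 180-day library (8.43%) and in 19 of 156 in the 30-day library (12.2%). The source of C20G and of A1G was not tested.

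**Figure D5:**
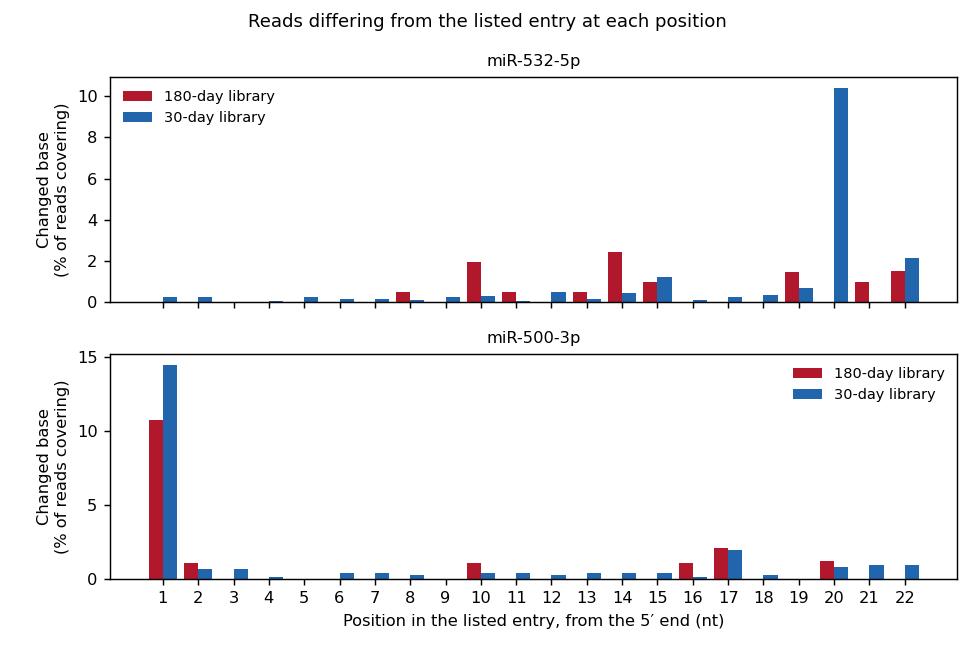
Percentage of covering reads whose base differed from the listed entry at each position of miR-532-5p (top) and miR-500-3p (bottom), red for the 180-day and blue for the 30-day library. One position stands out in each arm, position 20 of miR-532-5p at 30 days alone and position 1 of miR-500-3p in both libraries.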

How the data were processed

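Per the labels' protocols, RNA of 18 to 30 nucleotides was purified from a gel, ligated to adapters and amplified over 15 PCR cycles before sequencing on a Solexa 1G instrument. The authors deposited one list per library, which matches each distinct tag to a miRNA entry of some species and gives its raw read count, used unchanged. The alignment score in the deposited lists gave no result. Aligner, miRBase release and build: not given in the sources used here.

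Entries were merged into miRNAs by name (within 4 edits) or by identity over 17 bases at a shift of up to 3, unless one species lists both. Tags fitting several members equally were split (2 mismatches at most, 15 matching bases at least), 0.563% of cluster reads in the 180-day and 0.344% in the 30-day library. miR-502b (2 reads) is outside the naming rule. Arms were set from sequence, since the dog miR-500 entry is the 3p arm. Ratios have exact conditional, shares Clopper-Pearson and levels Poisson 95% intervals, by the same formulas for split reads (Python 3.11.15, scipy 1.17.1), tested on simulated data. TMM factors came from edgeR 4.0.16. Every member arm with reads is named or counted. Members and lists were chosen with earlier results of these data known.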

Additional observations from a re-analysis of the deposited data

How the results depend on the processing

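With 711 cluster reads at 180 days, depth limits miR-188, miR-500-5p, miR-501 and miR-502 most. Splitting shared tags or counting them whole under the listed name moved no call of a cluster arm. Against 1 of 9 measured cluster arms called higher and 0 lower, TMM and median-of-ratios scaling gave 0 higher. Whole-library scaling (per read of any small RNA, with the assumed least totals) gave 0 higher and 9 lower. With exact-match tags 7 arms were measured, and 2 of them were called higher. Leaving out tags of 1 read gave 1 lower, which was miR-188-5p with 3 reads at 180 days and 85 at 30 days. miR-362-3p, at a log2 ratio of 1.73, reversed to -1.34 under whole-library scaling. Against 30.7% of 433 miRNAs called higher and 11.5% lower, TMM gave 15.7% and 32.8%, median-of-ratios 14.8% and 33.7%, whole-library scaling 5.54% and 83.6%, exact-match tags 23.8% and 11.3% of 265, no minimum 18.1% and 3.84% of 1301, a minimum of 100 reads 24.5% and 14.3% of 294, and leaving out tags of 1 read 27.5% and 17.8% of 404. The cluster share was 0.0738% at 180 days and 0.0504% at 30 days with exact-match tags, 0.0738% and 0.0586% without tags of 1 read, and 0.234% and 0.237% once the 11 miRNAs among the 10 most abundant of either library were taken out of the total, so the higher share at 180 days was not seen with that total. The 5p share with exact-match tags was 68.1% at 180 days and 76.0% at 30 days for miR-532. In the same order it was 40.4% (21 of 52 reads) and 38.5% (42 of 109) for miR-362. For miR-500 it was 16.7% (2 of 12 reads, 2.09 to 48.4%) and 19.4% (25 of 129). Leaving out tags carrying C20G, chosen after seeing the data, gave 68.0% for miR-532 at 30 days. The sign of the log2 ratio changed in 6 of 9 arms under TMM, 6 under median-of-ratios, 7 under whole-library scaling, 4 of 8 with exact-match tags, 1 of 9 without tags of 1 read, and in miR-532-5p without C20G tags. A scaling shifts all ratios by construction, and the cause of the other moves was not tested. No paired analysis was possible because each age has 1 library.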
